A study of Mus musculus with 106 samples.

Results

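The lymphoid genes examined here are 10 of the 21938 protein-coding mouse genes in the annotation used: Il7r, Dntt, Rag1, Rag2, Ebf1, Pax5, Tcf7, Bcl11b, Gata3 and Cd3e. They were chosen by name as genes of B and T lymphocyte development, with earlier results of these data known, and each was read at its promoter (1 kb to either side of any of its annotated start sites) and over its gene body with flanks of 20 kb. Chromatin immunoprecipitation with sequencing (ChIP-seq) had mapped 2 histone marks: acetylated lysine 27 of histone H3 (H3K27ac), which sits at enhancers and promoters in use, and trimethylated lysine 4 (H3K4me3), which is concentrated around start sites. All mice were C57BL/6J, 12 to 14 weeks old when assigned to the control or the diabetic group. Diabetes was induced with streptozotocin (42 to 45 mg/kg per day for 5 days), and diabetic mice had blood glucose above 13.9 mmol/L 6 weeks later, when tissue was taken. Hematopoietic stem cells (HSC) are, per the labels, flushed marrow depleted of cells bearing CD3, CD4, B220, Ter119 or Gr1, so they hold many kinds of progenitor. Bone marrow-derived macrophages (BMDM) were grown for 7 days in 5 mmol/L glucose with L929 conditioned medium, then kept for 16 h in medium alone (unstimulated) or in 100 ng/mL lipopolysaccharide plus 10 ng/mL interferon gamma (LPS+IFN-γ). Each of the 70 peak lists is 1 library, 35 per mark: 12 groups of mark, cell state and disease held 6 libraries each, except that unstimulated diabetic BMDM held 5 for each mark.

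Lymphocytes arise in marrow from stem cells through progenitors that first open part of the lymphoid program and later close the myeloid one. IL7R carries the interleukin 7 signal that lymphoid precursors need, RAG1 and RAG2 cut antigen receptor genes, and DNTT adds bases at the joins. EBF1 and PAX5 install the B cell program, while TCF7, GATA3 and BCL11B install the T cell program that ends in the CD3 complex, of which CD3E is a part. Such genes may carry a mark before they are expressed, a state often called priming, and a promoter with H3K4me3 and little H3K27ac is one form that has been described.

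The lists hold 7828714 peaks in all, from 13730 to 277213 per library with a median of 110154, and no read counts, so library depth is unknown. At H3K4me3 the control HSC lists held 37378 to 109214 peaks and the control unstimulated BMDM lists 81003 to 212718. In diabetic mice these ran from 13730 to 145750 and from 66146 to 137710. The part of list length in the differences between cell states was not tested. Because list length varied that much, every gene was ranked within its own list: its strongest promoter peak, by the −log10 p that the authors' peak caller gave, was placed among the 21938 genes, with rank 1 the strongest. A rank past 10000, or no peak, was set to a shared last place, 1 past that limit. In H3K4me3 diabetic HSC 6 only 8946 genes had a promoter peak, so every such gene lay within the limit there. A lower number is therefore a stronger mark, and in what follows "ranked higher" means stronger. Among 200 genes whose H3K27ac separated stimulated from unstimulated diabetic BMDM, control unstimulated libraries 5 and 6 (78% and 77% of genes on the LPS+IFN-γ side) and control LPS+IFN-γ library 5 (20%) went against their labels. At H3K4me3 the 58 genes that separated the same diabetic groups did not part the control libraries of both states, which ran from 37.9% to 67.2%. In 4 H3K4me3 libraries (control LPS+IFN-γ 6, control unstimulated 6, diabetic LPS+IFN-γ 1 and 2) 2.3% to 8.4% of peaks gave a whole-number pileup within 0.02, against 100% in the other libraries, which leaves the scaling of those 4 unclear. Results called below were also computed without the first 3 and without the last 4.

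At H3K27ac promoters broad markers followed the cell labels. Of 10 stem and progenitor markers, 4 to 7 were ranked within 10000 in each HSC library and 1 to 5 in unstimulated BMDM, and of 10 macrophage markers 0 or 1 and 2 to 5. At H3K4me3 promoters they separated less: 6 to 8 stem and progenitor markers in HSC and 6 to 9 in unstimulated BMDM, and 1 to 3 and 2 to 5 macrophage markers. The B cell markers Cd79a, Cd79b, Ms4a1 and Cd22 were past rank 10000 in both marks in all 12 HSC libraries of each mark. Of 6 T cell markers, 1 or 2 were ranked at H3K27ac promoters in each HSC library, and Cd3g, Cd247, Cd2 and Zap70 in none.

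The promoters of the 10 genes differ in base composition, which is shown first because the marked and unmarked members part along it. The sequences below are the 250 bases upstream of the RefSeq start site (GRCm38.p6), 5′ to 3′ on the gene's own strand, with each CpG in capitals. The first 3 belong to transcription factor genes whose promoters carried H3K4me3, and the last 2 to genes whose promoters were ranked in no library of either mark. By the gene coordinates given below, the Il7r stretch lies inside the gene and the Bcl11b stretch partly so. The Tcf7 stretch holds an ATG with an open reading frame to its end, so it may include coding sequence. CpG counts are those of the records, whatever part of the gene they cover.
Bcl11b (chr12:108003415-108003664, minus strand): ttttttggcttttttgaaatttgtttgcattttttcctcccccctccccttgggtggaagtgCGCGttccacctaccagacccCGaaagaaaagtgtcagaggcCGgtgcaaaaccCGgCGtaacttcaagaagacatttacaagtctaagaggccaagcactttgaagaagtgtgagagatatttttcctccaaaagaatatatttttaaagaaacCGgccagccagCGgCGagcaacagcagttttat
Pax5 (chr4:44710695-44710944, minus strand): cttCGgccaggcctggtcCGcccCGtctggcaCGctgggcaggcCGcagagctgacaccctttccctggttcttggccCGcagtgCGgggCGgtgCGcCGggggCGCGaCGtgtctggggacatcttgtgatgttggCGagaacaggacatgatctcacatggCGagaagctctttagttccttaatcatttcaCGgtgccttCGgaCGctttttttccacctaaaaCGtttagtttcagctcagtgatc
Tcf7 (chr11:52283015-52283264, minus strand): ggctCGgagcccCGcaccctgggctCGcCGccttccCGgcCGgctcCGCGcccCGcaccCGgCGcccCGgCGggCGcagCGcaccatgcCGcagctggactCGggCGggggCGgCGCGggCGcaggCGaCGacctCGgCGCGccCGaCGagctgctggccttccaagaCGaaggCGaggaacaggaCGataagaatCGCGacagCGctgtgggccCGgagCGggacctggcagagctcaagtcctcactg
Rag1 (chr2:101649533-101649782, minus strand): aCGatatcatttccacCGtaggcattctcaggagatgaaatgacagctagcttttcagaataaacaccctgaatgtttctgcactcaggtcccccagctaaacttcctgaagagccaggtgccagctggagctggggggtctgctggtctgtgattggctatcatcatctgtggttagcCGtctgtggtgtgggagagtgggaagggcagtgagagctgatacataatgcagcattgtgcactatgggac
Il7r (chr15:9529877-9530126, minus strand): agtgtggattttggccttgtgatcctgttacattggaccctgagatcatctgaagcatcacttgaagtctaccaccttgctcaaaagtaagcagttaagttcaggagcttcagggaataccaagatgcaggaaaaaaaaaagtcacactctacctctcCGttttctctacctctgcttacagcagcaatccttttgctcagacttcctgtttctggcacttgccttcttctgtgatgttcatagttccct
In the whole 300-base promoter record, Il7r has 1 CpG, Dntt 2, Rag1 and Rag2 3 each, Cd3e 8 and Bcl11b 9. Ebf1 has 2 records with 9 and 17, Gata3 has 22, Pax5 23, and Tcf7 2 records with 45 and 17. As many CpGs as in the richer Tcf7 record occur in 1.93% of the 32851 promoter records of all genes, and as many as in the Il7r record in 94.6%.

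Marked promoters were far more frequent among CpG-rich genes in general. Of 16505 genes with a promoter record, H3K4me3 was ranked within 10000 in at least 18 of 35 libraries for 4.09% of those with 0 to 4 CpGs, 17.9% with 5 to 9, 56% with 10 to 19 and 84.3% with 20 or more. Il7r, Dntt, Rag1 and Rag2 fall in the poorest of these classes and Gata3, Pax5 and Tcf7 in the richest. Bcl11b, in the class with 5 to 9 CpGs, carried H3K4me3 within rank 10000 in 15 of 35 libraries, and Cd3e, in the same class, in 1. These shares describe the promoters and no test was run on them.

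**Figure D1:**
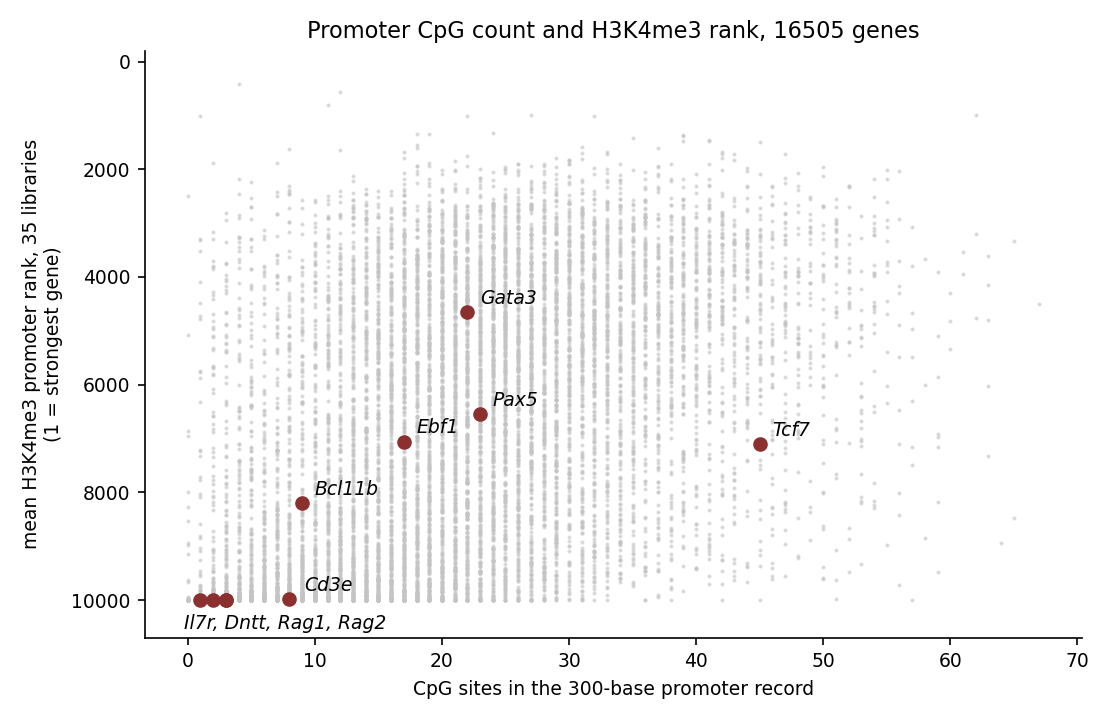
Each grey point is 1 of 16505 genes, with the number of CpG sites in its promoter record (for genes with several, the richest) on the x axis and its mean H3K4me3 promoter rank over 35 libraries on the y axis, strongest at the top. Il7r, Dntt, Rag1 and Rag2 lie past the limit with 1 to 3 CpGs, while Gata3, Pax5, Ebf1, Tcf7 and Bcl11b lie above the limit.

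The receptor and recombination genes were unmarked at their promoters. Il7r (ENSMUSG00000003882.5, chr15:9505788-9530176, minus strand), Dntt (ENSMUSG00000025014.13, chr19:41029275-41059525, plus), Rag1 (ENSMUSG00000061311.6, chr2:101638282-101649501, minus) and Rag2 (ENSMUSG00000032864.4, chr2:101624718-101632529, plus) were ranked within 10000 in 0 of 70 lists. The coordinates are those of GRCm38, the build of the files. Weak peaks below the limit did occur. Il7r had an H3K27ac promoter peak in 5 of 35 libraries, none of them HSC, and an H3K4me3 peak in 0. Dntt had one in 11 for H3K27ac and in 6 for H3K4me3, spread over all 3 cell states. Rag2 had an H3K27ac promoter peak in 7 libraries, of which 6 were HSC, with a median rank of 13404 and a median −log10 p of 8.02, and Rag1 had an H3K4me3 peak in 2, both control HSC, at ranks 10378 and 14100. With every library tied in the last place, none of these 4 promoters could be tested.

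Away from coding start sites the same 4 genes had uneven marking. The distal rank used the strongest peak over the gene body and its flanks that touched no coding promoter. For Il7r it was within 10000 in 10 of 35 H3K27ac libraries, 2 HSC and 8 BMDM, and the mean rank was 9642 ± 839 (SD, n = 12) in HSC and 8840 ± 2221 (n = 11) in unstimulated BMDM. The difference of 830 was not called (adjusted permutation p = 0.442). In cells of mixed kinds, here and in every comparison below, fewer marked cells and less mark per cell cannot be told apart. Dntt was ranked in 21 of 35 H3K27ac libraries, with means of 8191 ± 2422 (n = 12) in HSC and 7351 ± 2890 (n = 11) in unstimulated BMDM (adjusted permutation p = 0.587), and its window also holds Opalin. Rag1 and Rag2, which share a window with each other and with B230118H07Rik, were ranked in 0 and 1 of 35 H3K27ac libraries, and in 0 of 12 HSC libraries each.

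At the B lineage factors the promoters carried H3K4me3 in most libraries and H3K27ac within the limit in none. Ebf1 (ENSMUSG00000057098.14, chr11:44617317-45008091, plus) had an H3K4me3 promoter peak in 35 of 35 libraries, 27 of them within rank 10000. Its H3K4me3 promoter rank ran from above 10000 to 162 in control HSC (median 6798) and from 8132 to 1914 in diabetic HSC (median 6015). In unstimulated BMDM 3 control libraries were above 10000 and the other 3 were at 6689, 5218 and 6232, while the 5 diabetic ones were at 6730, 6422, 9730, 6001 and 3860. HSC and BMDM libraries overlapped over most of the range. The mean rank was 5668 ± 2762 (SD, n = 12) in HSC, 7353 ± 2196 (n = 11) in unstimulated and 8172 ± 2761 (n = 12) in LPS+IFN-γ BMDM, and the difference between HSC and unstimulated BMDM was not called (adjusted permutation p = 0.301).

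Pax5 (ENSMUSG00000014030.15, chr4:44524757-44710487, minus) was the most regular of the B lineage promoters. Its H3K4me3 peak was within rank 10000 in 33 of 35 libraries, including 12 of 12 HSC: control HSC lay between 2860 and 6106 (median 4992) and diabetic HSC between 4440 and 7576 (median 6090). Unstimulated control BMDM lay between 4270 and above 10000 (median 7186) and the diabetic ones at 9900, 7790, 6543, 3095 and 3658. Some BMDM libraries lay within the HSC range and others past its weak end, and none ranked higher than the strongest HSC library. Means were 5417 ± 1264 (SD, n = 12), 6737 ± 2627 (n = 11) and 7501 ± 2014 (n = 12) for HSC, BMDM left unstimulated and BMDM given LPS+IFN-γ (HSC against unstimulated, adjusted permutation p = 0.329). The H3K4me3 peak was broad, with a median width of 1670 bp in HSC against 605 bp at Ebf1.

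H3K27ac at the Ebf1 and Pax5 promoters was present only as weak peaks. It was deposited in 22 of 35 libraries at Ebf1 and in 25 of 35 at Pax5, with ranks from 10034 to 15656 and from 11104 to 15079, and median −log10 p in HSC of 8.47 and 8.63. The H3K4me3 peaks of the same promoters had medians of 29.1 and 31.2, but these values are not comparable between libraries and were not tested.

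The T lineage factors were less uniform. Tcf7 (ENSMUSG00000000782.15, chr11:52252371-52283014, minus) carried H3K4me3 within rank 10000 in 28 of 35 libraries, with means of 6799 ± 1813 (SD, n = 12) in HSC, 7081 ± 2391 (n = 11) in unstimulated BMDM and 7436 ± 3054 (n = 12) in LPS+IFN-γ BMDM (HSC against unstimulated, adjusted permutation p = 0.885). Its H3K27ac promoter peak was within the limit in 5 libraries, all HSC: control 2, 3 and 6 at 9472, 8636 and 9302, and diabetic 3 and 4 at 9584 and 9621. No BMDM library reached the limit, so Tcf7 entered the test through HSC alone and could only rank higher there. The mean difference of 283 ranks was not called (exact permutation p = 0.0413, adjusted p = 0.103). Cd3e (ENSMUSG00000032093.7, chr9:44998740-45009627, minus), a structural gene of the T cell receptor complex, was within the limit at its promoter in 1 of 70 lists, H3K4me3 control LPS+IFN-γ BMDM 3 at 9511.

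Bcl11b differed between cell types. Bcl11b (ENSMUSG00000048251.15, chr12:107910403-108003602, minus) had H3K4me3 promoter ranks between 3693 and 8224 in control HSC (median 4821) and between 2750 and 8138 in diabetic HSC (median 6498). In unstimulated BMDM all 6 control libraries were above 10000, and of the 5 diabetic ones 2 were ranked, at 3356 and 7175. Among 12 LPS+IFN-γ libraries 1 was ranked, diabetic 5 at 8954. All 12 HSC libraries were within the limit, so HSC overlapped with BMDM only through the 2 unstimulated diabetic libraries. Mean ranks were 5637 ± 1721 (SD, n = 12) in HSC, 9140 ± 2097 (n = 11) in unstimulated and 9914 ± 302 (n = 12) in LPS+IFN-γ BMDM. The promoter ranked higher in HSC than in unstimulated BMDM by 3417 places (exact permutation p = 0.000752, adjusted p = 0.0182).

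In the same comparison 12.3% of 13490 genes were called, 6.67% with HSC and 5.61% with BMDM higher, and of the 5 members tested 1 was called. The H3K4me3 peak was not missing from BMDM: it was deposited in all 23 BMDM lists, with a median rank of 11406 in unstimulated and 11360 in LPS+IFN-γ libraries. The deposited −log10 p of Bcl11b had medians of 27 in HSC and 26.1 in unstimulated BMDM. These values are not comparable between libraries, and only the ranks were tested. Leaving out control unstimulated libraries 5 and 6, whose H3K27ac partners went against their labels, gave an adjusted permutation p of 0.0401, and leaving out control unstimulated 6 alone, whose scaling is unclear, 0.0271. The call was lost when peaks were ranked by fold enrichment, with a rank limit of 5000, and with the replicate number as a block (difference −3564, adjusted permutation p = 0.0868).

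Gata3 ran the other way. Gata3 (ENSMUSG00000015619.10, chr2:9857078-9890034, minus) carried H3K4me3 within rank 10000 in 35 of 35 libraries. Control HSC lay between 4274 and 8270 (median 5771) and diabetic HSC between 3546 and 8017 (median 6401). Unstimulated control BMDM lay between 405 and 4773 (median 2183), and the diabetic ones at 1882, 2444, 6758, 8606 and 3991. Of the 6 control BMDM libraries 5 ranked higher than any HSC library, while the diabetic ones spanned the HSC range. Mean ranks were 6099 ± 1722 (SD, n = 12) in HSC, 3389 ± 2477 (n = 11) in unstimulated and 4383 ± 2723 (n = 12) in LPS+IFN-γ BMDM, and the difference of 2597 between the first 2 missed the threshold (exact permutation p = 0.00875, adjusted p = 0.0611). H3K27ac at Gata3 was within the limit in 12 of 35 libraries, at 8463 or weaker, with no called difference (adjusted permutation p = 0.558). In that H3K27ac promoter comparison 30.8% of 12131 genes were called, and of the 2 members that entered it, Tcf7 and Gata3, 0. Tcf7 could go only 1 way there.

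**Figure D2:**
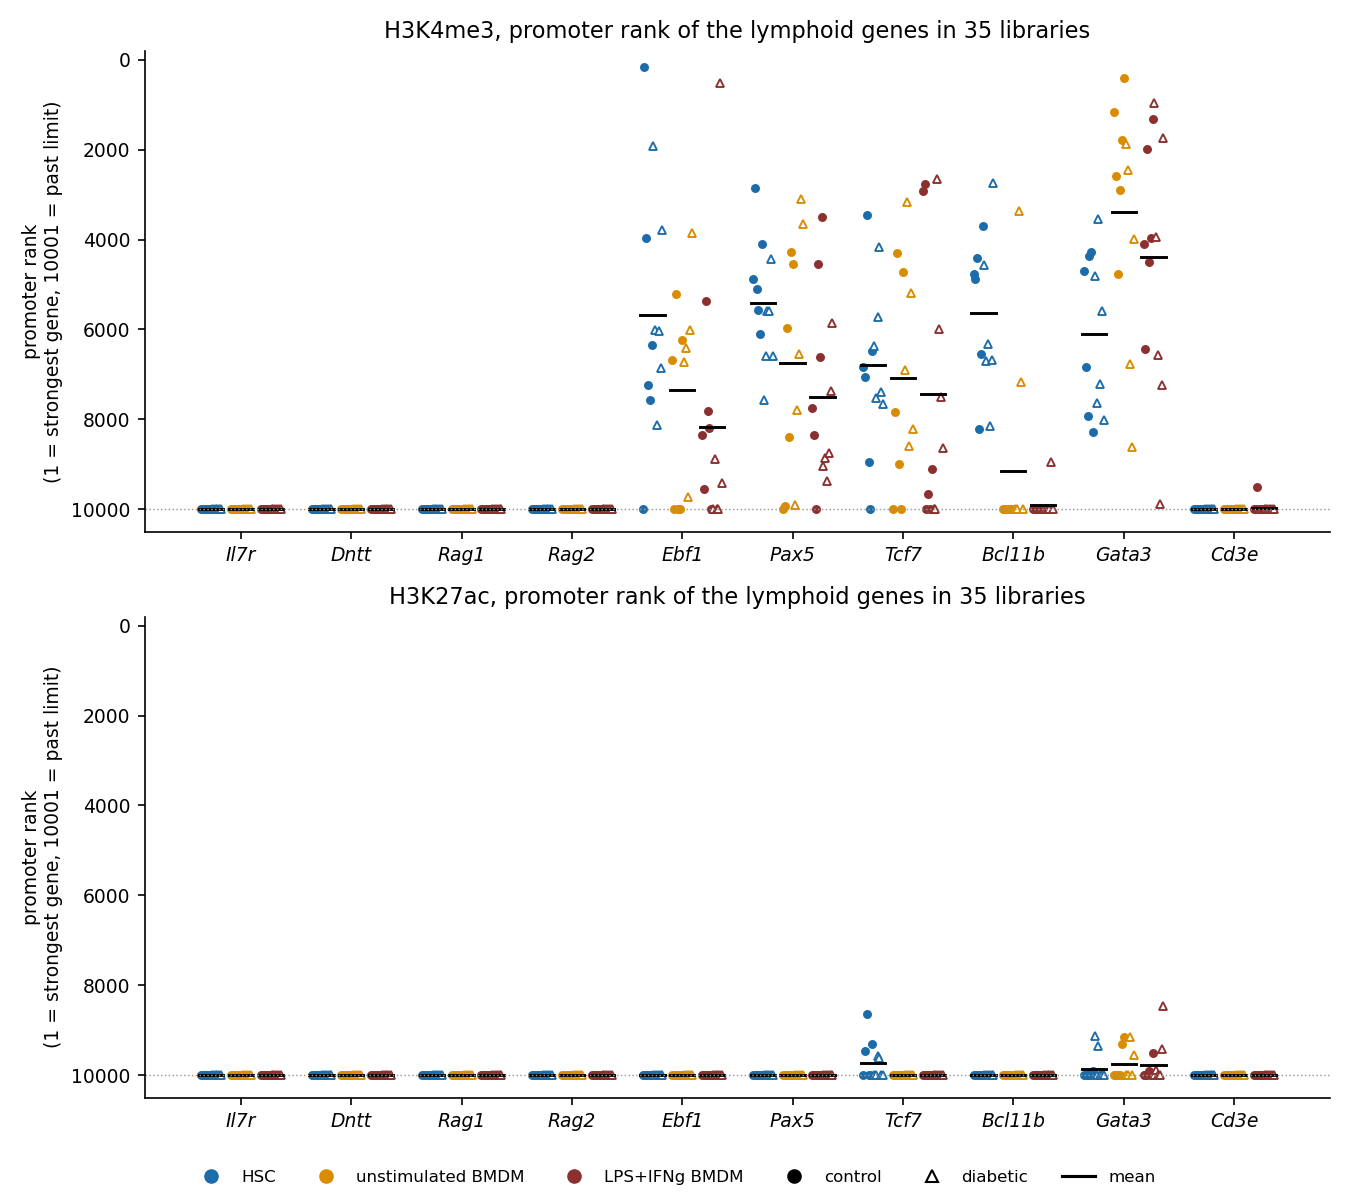
Each point is 1 library, with its promoter rank on the y axis (strongest at the top, past the dotted line at 10000 for a gene beyond the limit), filled circles for control and open triangles for diabetic mice, black bars for means. The 5 transcription factors spread over the H3K4me3 panel, with 12 of 12 HSC libraries of Bcl11b above the limit, while in the H3K27ac panel only Tcf7 and Gata3 leave it.

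The 2 marks were then set against each other within the same cells, since same-numbered libraries of both marks share their title and input. In HSC H3K4me3 ranked higher than H3K27ac at Gata3 (mean difference −3768, 12 of 12 pairs, adjusted sign-flip permutation p = 0.00276) and at Tcf7 (−2919, 11 of 12 pairs, adjusted p = 0.00368), the genes whose H3K27ac came within the limit in some HSC libraries. With a rank limit of 5000 neither was called (adjusted permutation p = 0.121 and 0.564), and Tcf7 was not called when holding a rank within 10000 was tested instead (Fisher's exact test, adjusted p = 0.0927). In this comparison 56.8% of 13737 genes were called, 28.3% with H3K4me3 higher. At Pax5, Bcl11b and Ebf1 every H3K27ac rank sat at the limit, so the difference could go only 1 way and is given as a description. It was −4584 at Pax5 and −4364 at Bcl11b, with H3K4me3 higher in 12 of 12 pairs each, and −4333 at Ebf1, in 11 of 12.

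In unstimulated BMDM H3K4me3 ranked higher at Gata3 (−6352, 11 of 11 pairs, adjusted permutation p = 0.00822), where H3K27ac was within the limit in 4 of 11 libraries. Here 40.1% of 13309 genes were called, 20% with H3K4me3 higher. Gata3 was called in LPS+IFN-γ BMDM too (−5383, 12 of 12 pairs, adjusted permutation p = 0.00473), with H3K27ac within the limit in 5 of 12 libraries, in a comparison where 44.2% of 13479 genes were called and 22.4% had H3K4me3 higher. At the other 4 factors H3K27ac was past the limit in every BMDM library, so only H3K4me3 could rank higher there and no test is given. In unstimulated BMDM the difference was −3264 at Pax5 (10 of 11 pairs), −2920 at Tcf7 (9 of 11), −2648 at Ebf1 (8 of 11) and −861 at Bcl11b (2 of 11). In LPS+IFN-γ BMDM it was −2500 at Pax5 (11 of 12 pairs), −2565 at Tcf7 and −1829 at Ebf1 (8 of 12 each).

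The gap between marks was also compared between cell types. The H3K4me3 minus H3K27ac difference was more negative in HSC than in unstimulated BMDM at Bcl11b (by 3417, adjusted permutation p = 0.0103) and less negative at Gata3 (by 2472, adjusted permutation p = 0.0477), with 20.7% of 14285 genes called. At Bcl11b all H3K27ac ranks were at the limit, so this value repeats the H3K4me3 difference. The Gata3 call was lost when any of 15 of 23 single library pairs was left out (differences from 2083 to 2923), without control unstimulated pairs 5 and 6 (2308, adjusted permutation p = 0.0909) and without pair 6 alone (2345, adjusted p = 0.0663). With the replicate number as a block neither was called (Bcl11b adjusted permutation p = 0.0616, Gata3 0.0648).

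**Figure D3:**
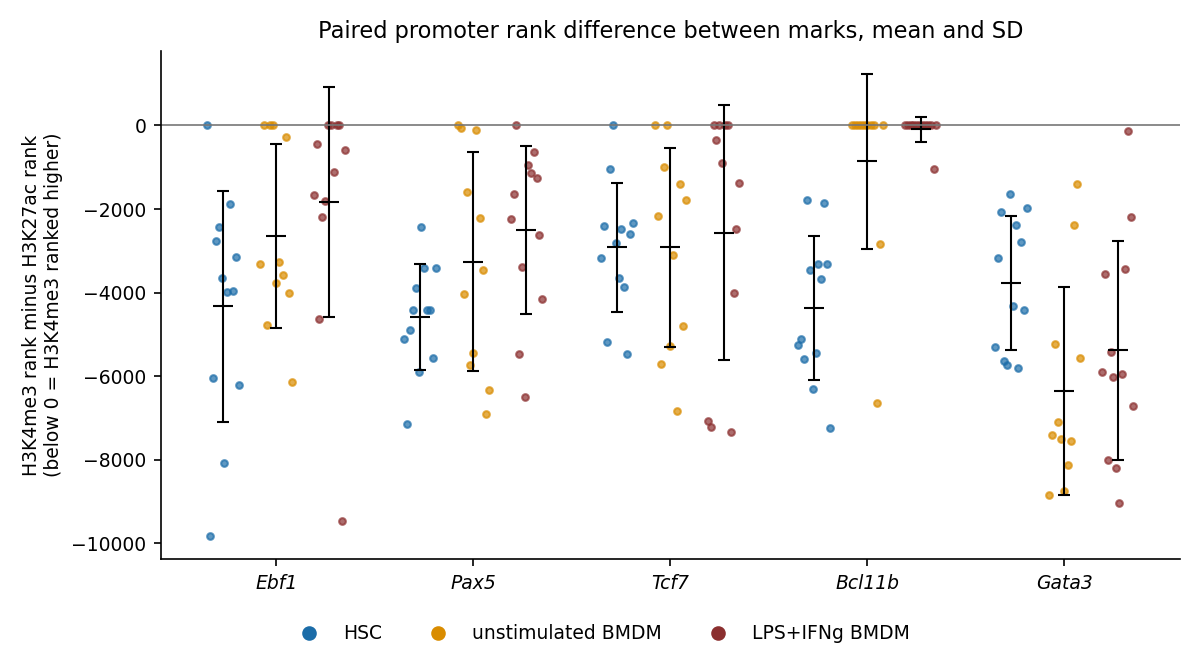
Points show H3K4me3 rank minus H3K27ac rank for 1 pair of libraries of the same cells at each transcription factor promoter, black marks the mean and its SD, and values below 0 mean that H3K4me3 ranked higher. Bcl11b pairs lie well below 0 in HSC (mean −4364) and mostly at 0 in unstimulated BMDM (mean −861), whereas Gata3 goes from −3768 to −6352.

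By a simple count, a gene was said to carry H3K4me3 without H3K27ac when at least 75% of a state's libraries ranked it within 10000 for the former and at most 25% for the latter. In HSC 1472 of 21938 genes (6.71%) did so, and 4 of the 10 lymphoid genes were among them: Ebf1, Pax5, Bcl11b and Gata3. In unstimulated BMDM 593 genes (2.7%) did so, with Pax5 and Tcf7 among them, and in LPS+IFN-γ BMDM 797 (3.63%), with Pax5. Of genes with H3K4me3 in at least 75% of libraries, these made up 16.9% in HSC, 6.99% in unstimulated and 8.95% in LPS+IFN-γ BMDM. In HSC an H3K27ac peak, mostly past the limit, was present at Ebf1 in 9, at Pax5 in 7, at Bcl11b in 8 and at Gata3 in 12 of 12 libraries, so the count means weak H3K27ac and not its absence.

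Outside promoters, Tcf7 showed the clearest difference. Its distal H3K27ac rank was within 10000 in 12 of 12 HSC libraries, between 1019 and 4614 in control (median 2888) and between 1587 and 5282 in diabetic HSC (median 2846). Unstimulated control BMDM lay between 4899 and above 10000 (median 8132). Of the 5 diabetic libraries 3 were above 10000 and the others at 6520 and 4799. Only 2 BMDM libraries, control 4 and diabetic 6, came within the HSC range. The mean rank was 2959 ± 1212 (SD, n = 12) in HSC, 8144 ± 2015 (n = 11) in unstimulated and 9188 ± 1475 (n = 12) in LPS+IFN-γ BMDM, so that Tcf7 ranked higher in HSC than in unstimulated BMDM by 5196 places (exact permutation p = 7.03e-06, adjusted p = 0.000203). The call held without control unstimulated libraries 5 and 6 (adjusted permutation p = 0.000693) and with the replicate block (−5061, adjusted p = 0.0131), and was lost only when holding a rank within 10000 was tested in place of the rank itself (Fisher's exact test, adjusted p = 0.206). In this comparison 26.9% of 16638 genes were called, 13.7% with HSC higher, and of the 8 members tested 1 was called. The Tcf7 window also holds Skp1a.

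The remaining members did not pass in that comparison. The nearest were Pax5 (−2012, adjusted permutation p = 0.068), Ebf1 (−1890, adjusted p = 0.0809) and Cd3e (−1651, adjusted p = 0.0974). Cd3e was ranked in 6 of 12 HSC libraries, at 9048, 9826 and 1674 in control 2, 4 and 6 and at 5613, 6146 and 7892 in diabetic 2, 5 and 6, and in 0 of 23 BMDM libraries; its window also holds Cd3g and Cd3d. Gata3 (−652, adjusted permutation p = 0.37) and Bcl11b (6, adjusted p = 1) were further off. Mean distal H3K27ac ranks of Pax5 were 6694 ± 1975 (SD, n = 12) in HSC and 8776 ± 1690 (n = 11) in unstimulated BMDM, and those of Ebf1 7656 ± 2300 (n = 12) and 9562 ± 945 (n = 11). Their groups overlapped.

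Markers of several cell types were read beside the Tcf7 result. In the same distal H3K27ac comparison HSC ranked higher at 6 of 10 stem and progenitor, 2 of 6 T cell, 2 of 5 erythroid, 1 of 5 neutrophil, 1 of 10 macrophage and 0 of 4 B cell markers tested, against 13.7% of all genes. The median differences of these lists were, in that order, −2294, −1643, −2282, 104.3, 3580 and 13.54. BMDM ranked higher at 6 of 10 macrophage and 1 of 4 B cell markers and at 0 of the other markers, against 13.2% of all genes. Of the 6 T cell markers, 2 to 6 (median 4.5) had a distal H3K27ac rank within 10000 in HSC libraries and 2 to 4 (median 3) in unstimulated BMDM. Cd3d, Cd3g and 1 erythroid marker were past the limit in every unstimulated BMDM library, so they could only rank higher in HSC. In every HSC library 2 B cell, 1 macrophage and 1 neutrophil marker were past it. Those of them tested could only rank higher in BMDM. Cd247, the zeta chain of the T cell receptor complex, and Zap70, the kinase it recruits, ranked higher in HSC by 2616 (adjusted permutation p = 0.0009) and 1924 places (adjusted p = 0.0276). At H3K27ac promoters 1 to 2 of the 6 T cell markers (median 2) were ranked in HSC libraries, and 0 to 2 (median 0) in unstimulated BMDM. Cd3d was among those ranked in HSC. The promoters of Cd3g, Cd247, Cd2 and Zap70 were past the H3K27ac limit in 12 of 12 HSC libraries. The part of any of these cells in the Tcf7 result was not tested.

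**Figure D4:**
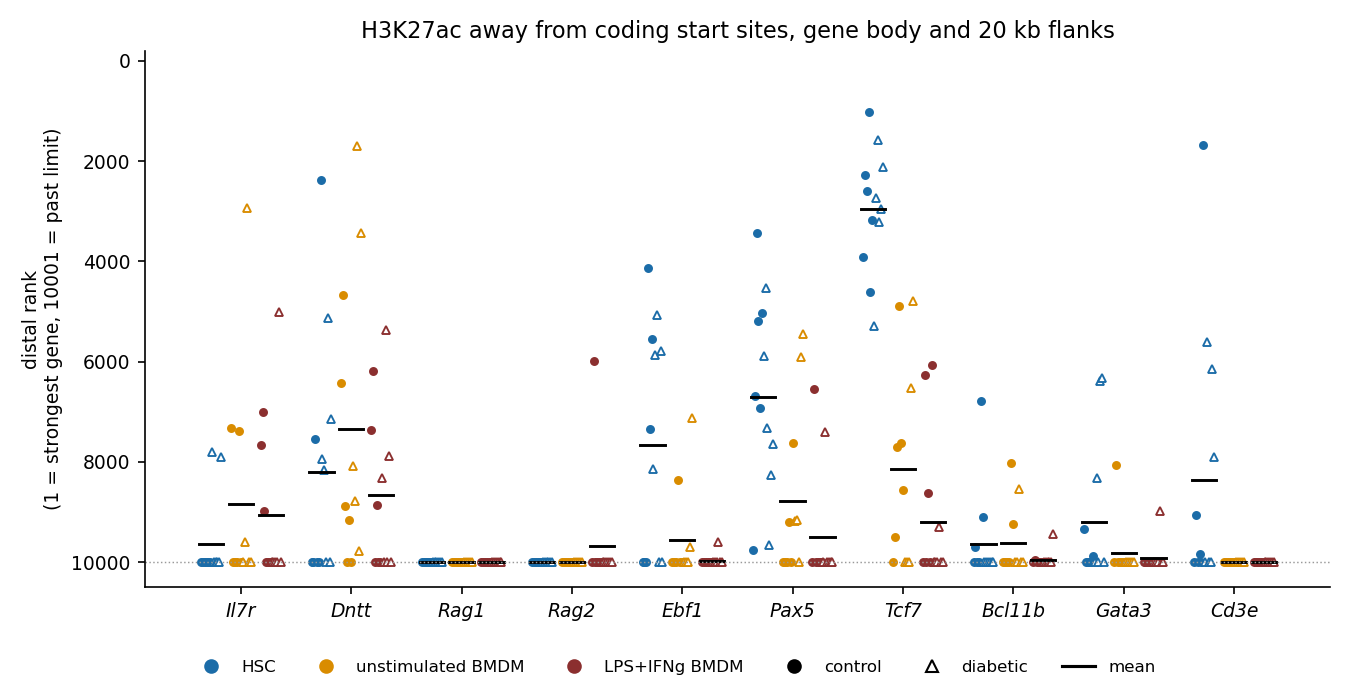
Each point is the distal H3K27ac rank of 1 library (strongest at the top, beyond the dotted line past the limit of 10000) over the gene body and 20 kb flanks, with filled circles for control, open triangles for diabetic mice and black bars for means. Tcf7 in HSC (mean 2959) is placed above most of its BMDM libraries (means 8144 and 9188), and Cd3e leaves the limit in 6 HSC libraries only.

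Within Tcf7 the HSC signal came from several intervals. Merging peaks from the top 20000 of each H3K27ac list gave 3 inside introns and 1 upstream. The interval at chr11:52273751-52275413, 8.43 kb into the gene and within 1 kb of the annotated start of A630014C17Rik, had a peak in 12 of 12 HSC libraries, 7 of 11 unstimulated and 6 of 12 LPS+IFN-γ BMDM, and was in the top 20000 in 7, 0 and 0. The one at chr11:52264636-52265855, 17.8 kb in, had a peak in 12, 7 and 4 libraries and was in the top 20000 in 5, 0 and 0. The one at chr11:52271732-52273705, 10.3 kb in, gave 11, 6 and 6 with 5, 0 and 0 in the top 20000, and the upstream one at chr11:52284164-52284854 gave 11, 7 and 6 with 6, 2 and 0. Weaker peaks thus lay at the same places in part of the BMDM libraries.

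The 300 bases at the middle of the HSC summits of the first interval (GRCm38.p6, chr11:52274663-52274962, plus strand, 5′ to 3′) are printed because the 12 HSC summits fall between 52274713 and 52274955. Capitals mark the 2 motif matches found.
Tcf7 intronic interval: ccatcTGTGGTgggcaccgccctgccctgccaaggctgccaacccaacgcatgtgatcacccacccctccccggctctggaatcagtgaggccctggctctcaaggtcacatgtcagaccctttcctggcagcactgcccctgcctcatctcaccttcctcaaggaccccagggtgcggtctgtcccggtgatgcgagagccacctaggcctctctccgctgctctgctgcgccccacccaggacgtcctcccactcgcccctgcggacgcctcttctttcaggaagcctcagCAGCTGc
Searched on both strands for TGTGGT, the core bound by RUNX factors, it holds 1 match, as do 19.7% of 686 windows of the same length at distal summits on chromosome 11 in H3K27ac control HSC 1. CAGCTG, an E-box, matches 1 time (28.3% of windows), and neither AGATAA, the GATA core (8.16%), nor GGAAGT, an ETS core (20.4%), was found. The matched motifs do not overlap, and the matches describe letters only.

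H3K4me3 also spread beyond the promoters of the transcription factors. Its distal ranks were not tested and are given as a description. Bcl11b had a distal H3K4me3 rank of 1136 ± 769 (SD, n = 12) in HSC and 3918 ± 1774 (n = 11) in unstimulated BMDM, Pax5 890 ± 496 and 1997 ± 1859, Ebf1 1890 ± 849 and 2930 ± 2529, and Tcf7 2581 ± 2816 and 5077 ± 3195. Gata3 was at 5839 ± 3725 and 6132 ± 3630, means much closer together than their spread. Merging peaks from the top 20000 of each H3K4me3 list gave 15 intervals over these genes. Diabetic HSC 6 held 13730 peaks, so all of them counted as its top 20000. The share of libraries with the interval in their top 20000 was larger in HSC than in unstimulated BMDM at 11 of them and smaller at 4, which were Pax5 −1.65 kb (4 of 12 HSC and 5 of 11 unstimulated libraries) and −3.3 kb (9 and 9), Bcl11b 4.69 kb (0 and 2) and Gata3 −5.97 kb (2 and 5). At Bcl11b an interval at −2.14 kb, upstream of the start (chr12:108004615-108006876) had a peak in 11 of 12 HSC, 11 of 11 unstimulated and 12 of 12 LPS+IFN-γ libraries and was in the top 20000 in 11, 6 and 5. An intronic one 23.3 kb in (chr12:107979424-107981108) was in the top 20000 in 10, 4 and 6. At Pax5 an intronic interval 46.2 kb in (chr4:44663408-44665099), within 1 kb of the start of Gm12462, was in the top 20000 in 11, 7 and 4 libraries. These last 3 are those of the 15 with the most HSC libraries in the top 20000 at Bcl11b and Pax5.

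**Figure D5:**
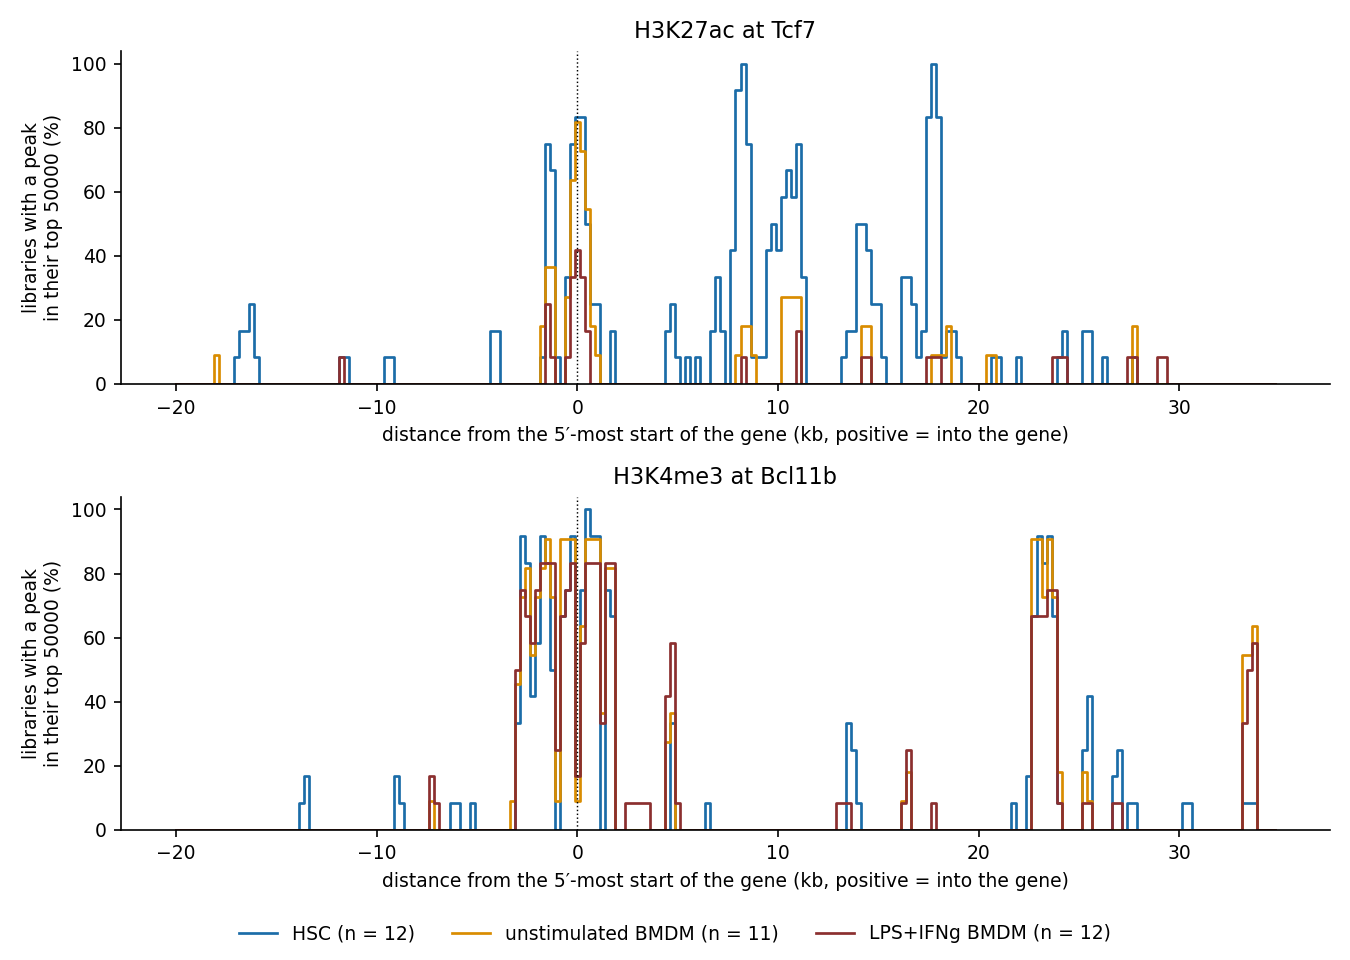
The y axis gives the percentage of libraries with a peak from their top 50000 at points 0.25 kb apart along Tcf7 (H3K27ac) and Bcl11b (H3K4me3), and the x axis the distance in kb from the gene's start, positive into the gene. At Tcf7, 12 of 12 HSC libraries have such a peak at 8.25 and at 17.75 kb, against 2 and 1 of 11 unstimulated BMDM, while at Bcl11b all 3 states share the same intervals.

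No lymphoid gene was called for diabetes, in a design that leaves little room for a call. Between diabetic and control libraries 0 genes of any kind were called (0% of those tested) in each of the 3 cell states by the exact permutation test in promoter H3K27ac (300 of 11179, 416 of 11369 and 362 of 11331 genes had an unadjusted p under 0.05), promoter H3K4me3 (355 of 12734, 440 of 12422 and 543 of 12764) or distal H3K27ac (401 of 14375, 542 of 14626 and 356 of 14591). With 6 against 6 or 6 against 5 libraries the smallest p that could be reached was 0.00216, so that a call needed at least 484 to 634 genes at that p at once and no gene could have passed alone. By limma on the ranks 9 genes were called at distal H3K27ac in HSC, 1 at H3K27ac promoters in unstimulated BMDM and 0 in the other 7 of these comparisons, and none of them was one of the 10. Of the member differences tested, those furthest from 0 were at the H3K4me3 promoters of Gata3 (diabetic minus control 2469, exact permutation p = 0.11) and Bcl11b (−1894, exact permutation p = 0.182), both in unstimulated BMDM. The smallest unadjusted p was that of the Pax5 H3K4me3 promoter in HSC (1291, exact permutation p = 0.0714), and all 3 had an adjusted p of 1. At Gata3 the diabetic libraries ran from 1882 to 8606 and the controls from 405 to 4773, and at Bcl11b the difference came from 2 of 5 diabetic libraries. The contrast of the diabetic effect between HSC and unstimulated BMDM was called for 0 genes in either mark (373 of 12131 and 459 of 13490 at an unadjusted permutation p under 0.05). Distal H3K27ac at Tcf7 was 2934 ± 1269 in control and 2983 ± 1273 in diabetic HSC (SD, n = 6 each).

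No member was called for stimulation. Between LPS+IFN-γ and unstimulated BMDM 0 of 11960 genes were called at H3K27ac promoters (0%, with 1720 at an unadjusted permutation p under 0.05) and 0 of 13330 at H3K4me3 promoters (0%, with 658). At distal H3K27ac 18 of 16437 (0.11%) were called, 0.0852% with stimulated and 0.0243% with unstimulated cells higher, and 0 of them were among the 10. These counts changed with the libraries and with the test. Without the 3 control libraries that went against their labels, 515 genes were called at H3K27ac promoters and 480 at distal H3K27ac. By limma on the ranks of all libraries 349 and 322 were called, and in both cases 0 of the 10 were among them. Those 3 libraries were singled out by H3K27ac at genes of stimulation, so the counts without them are not independent of that choice. The order of the mean H3K4me3 promoter ranks over the 3 states was HSC, unstimulated, LPS+IFN-γ, strongest first, at Ebf1, Pax5, Tcf7 and Bcl11b, and unstimulated, LPS+IFN-γ, HSC at Gata3. Of the neighbours in these orders that were tested, only HSC and unstimulated BMDM at Bcl11b differed beyond their spread; HSC and LPS+IFN-γ BMDM were not compared by a test.

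A wider set of 71 lymphoid genes put the members in context. At H3K27ac promoters in HSC against unstimulated BMDM, 6 of 15 tested genes of the lymphoid progenitor list ranked higher in HSC and 3 higher in BMDM (list median difference −100.4, all genes −79.54). Satb1, a chromatin organizer, ranked higher in HSC by 3572 places and Bcl11a, a factor of early lymphoid progenitors, by 3285 (both adjusted permutation p = 7.79e-05), while Lmo4 ranked higher in BMDM by 2974 (adjusted p = 0.00144). Of 8 B lineage genes 2 ranked higher in HSC (Bach2, −2676, and Tcf3, −1664) and 1 in BMDM (Cd72, 2598). Of 11 T lineage genes 0 ranked higher in HSC and 2 in BMDM (Zbtb7b, 2651, and Cd6, 480), and of 4 NK and innate lymphoid genes 0 and 3 (Id2, 6306; Nfil3, 3536; Zbtb16, 1307). All-gene shares were 15.3% with HSC higher and 15.4% with BMDM higher. Cd6 and Id2 were past the limit in every HSC library, so they entered the test through BMDM alone and could only rank higher there. Flt3, Ikzf3 and Cd27 of the progenitor list were past it in every unstimulated BMDM library and could only rank higher in HSC. The counts were not corrected for such genes.

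At distal H3K27ac the median differences of all 4 lists lay toward HSC, while more B lineage genes were called toward BMDM than toward HSC. No test set the lists against all genes. The counts, HSC higher and BMDM higher, were 6 and 2 of 17 lymphoid progenitor genes (median difference −512.7), 1 and 2 of 18 B lineage genes (−336.7), 4 and 0 of 20 T lineage genes (−661) and 2 and 0 of 11 NK and innate lymphoid genes (−341.2), against 13.7% and 13.2% and a median of 51.32 over all genes. Bcl11a (−5619, adjusted permutation p = 0.000124), Ikzf2, an Ikaros family factor (−5280, adjusted p = 0.000124), and Flt3, the receptor that marks lymphoid-primed progenitors (−3339, adjusted p = 0.0213), led the first list. The T lineage genes ranked higher in HSC included Cd247, a chain of the T cell receptor complex (−2616, adjusted permutation p = 0.0009). Thy1 (−2410) was past the limit in every unstimulated BMDM library, so it could only rank higher in HSC. In all, 6 T lineage, 5 B lineage, 3 NK and innate lymphoid and 0 progenitor genes were past it in every such library. In every HSC library 0, 3, 0 and 1 were, in that order. Those of them tested could go only 1 way, and the distal medians and counts were not corrected for them. At H3K4me3 promoters 1 gene each of the progenitor (Sox4, −2950), B (Tcf3, −2850) and T lineage (Tox, −4392) lists ranked higher in HSC, of 15, 6 and 8 tested, and 0 of 6 NK and innate lymphoid genes, against 6.67% of all genes with HSC and 5.61% with BMDM higher. By the permutation test no gene of the 4 lists was called between LPS+IFN-γ and unstimulated BMDM or between diabetic and control libraries.

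The marks were also compared in these lists. In HSC 7 of 15 progenitor genes had H3K4me3 ranked higher and 1 H3K27ac, with 3 and 1 of 5 B lineage, 2 and 1 of 10 T lineage and 4 and 0 of 6 NK and innate lymphoid genes, against 28.3% of all genes with H3K4me3 and 28.5% with H3K27ac higher. The T lineage share lay below the first of these. Tox (−6565), a T lineage factor, Ikzf3 (−6095), Foxo1 (−5150), Lef1 (−4909) and Zbtb16 (−4883) had the largest such differences (adjusted permutation p = 0.00276 each). Vpreb1, part of the surrogate light chain of pre-B cells, went the other way at 5045 (adjusted permutation p = 0.00276). Where 1 mark was past the limit in every HSC library the direction was fixed, and the counts above include such genes. At Cd3d this mark was H3K4me3, so its difference of 594 could go only 1 way. At Zap70, Eomes, Id2 and Il2rb the mark past the limit was H3K27ac. Those of them tested could only have H3K4me3 higher.

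The genes whose promoter ranks ran most like each member's over the 70 libraries, by Pearson r after centring each mark, were Aff3 (0.841) and Msi1 (0.826) for Bcl11b, Ccdc149 (0.768) and Grip1 (0.761) for Ebf1, Prelid3a (0.678) and Faah (0.661) for Pax5, Col25a1 (0.577) and Tbc1d17 (0.57) for Gata3, and P2ry1 (0.52) and En2 (0.518) for Tcf7. These are descriptions over libraries that share list length and quality. For Cd3e the value would rest on 1 library, and for Il7r, Dntt, Rag1 and Rag2 all ranks are tied.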

How the data were processed

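Of 106 samples, 70 had a peak list that was read here; the 36 inputs (chromatin sequenced without antibody) were not used on their own. ChIP used antibodies to H3K27ac and H3K4me3, and libraries were sequenced as 50 bp single reads. The submitters' processing notes name Trim Galore 0.3.3, cutadapt 1.8, FastQC 0.11.3, Bowtie2 2.2.6, Picard 2.18.14 and 2.19.2, bedtools 2.19.1 and MACS2 2.2.7.1, with GRCm38. In the deposited lists the authors' peak caller gave each peak a ratio, its fold enrichment over background, and −log10 p and −log10 q values. Each deposited −log10 p depends on the depth of its own library, which is unknown, so only ranks within a list were compared.

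Intervals split into several summits were merged into 1 peak. Promoters were taken from 93513 start sites (GENCODE M21) of 21938 protein-coding genes. Ranks, the limit of 10000 and the distal rank are as defined with the results. Groups came from the labels. HSC and unstimulated BMDM, and LPS+IFN-γ and unstimulated BMDM, were compared by exact two-sided permutation of the mean rank within disease strata; disease effects by exact permutation of 6 against 6 or 5 libraries; and the marks by exact sign flips over 12 or 11 pairs (smallest p 0.000488 and 0.000977). P values were adjusted by Benjamini-Hochberg over all genes ranked within the limit in at least 2 of the libraries compared, and a call is an adjusted p under 0.05. The test was tested on simulated data. The labels do not say that libraries of a group come from separate animals, so p values measure the spread between these libraries, which may be partly technical. Same-numbered libraries of both marks share title and input; each library's deviations correlated best with its own number in every group (lowest r 0.054), so the marks were paired. Numbers did not pair other groups (lowest r −0.34 to 0.015), and a block on them was an alternative.

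The 10 members, the lists, the markers and the tests were chosen with earlier results of these data known. Named genes are the 10 members, the 3 called genes of each other lymphoid list with the largest difference in mean rank, and the 2 genes most like each member in promoter rank; some of the genes this rule or the marker lists would name are not reported here. Sequences came from RefSeq (GRCm38.p6), and all 10 members matched a record. Python 3.11.15, numpy 2.4.6, pandas 2.3.3, scipy 1.17.1, numba 0.67.0, matplotlib 3.10.9, R 4.3.3 and limma 3.58.1 were used.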

Additional observations from a re-analysis of the deposited data

Results flagged for a closer look

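At Pax5 the distal H3K4me3 rank of diabetic LPS+IFN-γ BMDM library 3 was 6668, while the other 5 libraries of the group lay between 290 and 1734. Its gap to the nearest library was 0.774 of the whole range of 6, above Dixon's critical value for 6 values. Among the 41 groups of member values tested it was the only library so far from the others, and chance alone singles out about 1 group in 20. The other 199 groups had a library past the rank limit and were not tested.

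At Bcl11b the difference between the marks (H3K4me3 minus H3K27ac promoter rank) differed between HSC and unstimulated BMDM by −3417 (adjusted permutation p = 0.0103), and at Gata3 by 2472 in the other direction (adjusted permutation p = 0.0477). The Bcl11b value repeats its H3K4me3 difference, since every H3K27ac rank there was past the limit, and both calls were lost with peaks ranked by fold (adjusted permutation p = 0.21 and 0.303) and with the replicate block (0.0616 and 0.0648). That of Bcl11b was also lost with a rank limit of 5000 (0.595), and that of Gata3 with promoter windows of 500 or 2000 bp (0.0531 and 0.105), without control unstimulated pairs 5 and 6 (0.0909), without pair 6 (0.0663) and in 15 of 23 cases with 1 pair left out.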

How the results depend on the processing

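Of 21 comparisons, 15 had 0 lymphoid genes called in every setting, and no gene called as reported changed sign in the same comparison in any setting run. For H3K4me3 promoters in HSC against unstimulated BMDM, 1 gene was called; the number was 0 with peaks ranked by fold, with a rank limit of 5000 and with the replicate block, 5 with no rank limit, 2 when the summit had to lie inside the window or the window was 500 bp, and 1 to 2 when a library was left out. The second gene was Gata3 (adjusted permutation p = 0.0484 and 0.0482), also without diabetic unstimulated BMDM 5 (0.0256) or diabetic HSC 3 (0.0483). With no rank limit a gene without a peak is placed just after the last ranked gene, so list length sets its rank. Among the 5 genes called that way were Dntt (−1791), Rag1 (−1925) and Cd3e (−1776). Rag1 had an H3K4me3 promoter peak in 2 of 12 HSC and 0 of 11 unstimulated libraries. Every count with no rank limit depends on list length in this way. Over the settings that compare ranks, Bcl11b differed by −4831 to −249 places. For distal H3K27ac 1 gene was called, against 4 with no rank limit, 3 with the summit inside, with no flank or with limma, 2 with flanks of 50 kb, 0 with Fisher's exact test and 1 to 2 with a library left out. Ebf1 and Pax5 were called with no flank (adjusted permutation p = 0.0114 and 0.011) and with limma (0.0214 and 0.0226), and Pax5 without diabetic unstimulated BMDM 5 or 6, diabetic HSC 4 or control HSC 1 (0.0328 to 0.044). Cd3e and Gata3 were called with the summit inside (0.000472 and 0.00186). Gata3, not called as reported, was thus called in opposite directions, −4432 with the summit inside and 1123 with flanks of 50 kb (0.0396). Between marks, counting also the genes whose direction was fixed, a limit of 5000 left 0 of 5 calls in HSC, 1 of 4 in unstimulated and 1 of 4 in LPS+IFN-γ BMDM; no rank limit gave 8 and 7 in the BMDM states, leaving out the 4 libraries of unclear scaling gave 2 in LPS+IFN-γ BMDM, and leaving out 1 pair always left 5, 4 and 4. Bcl11b was also called between marks in unstimulated BMDM with peaks ranked by fold (−4835, adjusted permutation p = 0.00883). For the gap between marks, 2 calls became 0 by fold or with the replicate block, 1 with a limit of 5000, with windows of 500 or 2000 bp or without control unstimulated pairs 5 and 6 or pair 6, 6 with no rank limit, and 1 to 2 with a library left out. Fisher's exact test was not run for the gap between marks or the contrast of disease effects. The replicate block changed no other call of these genes. The cause of these changes was not tested.

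Over all genes, the 1657 calls for H3K4me3 promoters between HSC and unstimulated BMDM became 122 by fold, 207 with a limit of 5000, 94 by Fisher's exact test, 902 without control unstimulated 5 and 6, 3102 with no rank limit and 0 with the replicate block. Depth is unknown, and a gene near rank 10000 can pass or miss the limit by small changes in a list.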
